A study of Mus musculus with 6 samples.

Results

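The mitochondrial ribosomal protein genes were taken as every gene whose symbol begins with Mrpl or Mrps followed by a digit. This rule found 78 genes of the 17866 in the table, and it used no measured value. The data were bulk RNA-seq of the corneal epithelium of C57BL/6 mice at 6 months of age, 3 wild type (WT) libraries and 3 Rela-/- (KO) libraries, each from a separate sample. Rela encodes the NF-kB subunit RelA. In the study the knockout was made with Krt14-Cre and a floxed Rela allele (Krt14-Cre; Rela f/f). The deletion is thus limited to cells that expressed Krt14 and to their descendants. Cells that express Krt14 include basal cells of the cornea and of other stratified epithelia such as skin and conjunctiva. The only comparison of the design is KO against WT.

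Mitochondria hold their own ribosomes, which translate the few proteins encoded by mitochondrial DNA, all of them subunits of the respiratory chain and of ATP synthase. The RNA of these ribosomes is made inside mitochondria, whereas every ribosomal protein is encoded in the nucleus, made in the cytosol and imported. A large subunit joins amino acids and a small subunit reads the mRNA. Some of the proteins have a counterpart in the bacterial ribosome and others are found only in mitochondria. By these roles the genes comprised 51 of the large subunit, among them Mrps30 and Mrps18a despite their names, and 26 of the small subunit. The remaining gene, Mrps36, carries a ribosomal name but encodes a part of the alpha-ketoglutarate dehydrogenase complex.

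Each library held 20158404 to 20880347 counts. Counts of Rela were 1871, 1844 and 1855 in WT and 318, 223 and 313 in KO, so the labels match the targeted gene (log2 fold change −2.60 ± 0.14 SE, edgeR adjusted p = 2.7e-06). Corneal epithelium markers (Krt12, Pax6, Aldh3a1, Tkt, Slurp1, Upk1b) summed to 68054 to 68880 CPM (counts scaled to the library total) in WT and to 11587 to 14327 in KO, and 6 of 6 were lower. The 6 epidermal markers summed to 28.5 to 39.6 CPM in WT and to 11571 to 23971 in KO, with 5 higher and 1 lower. The 6 conjunctival and goblet cell markers summed to 1755 to 2754 CPM in WT and to 51949 to 66752 in KO, 5 of 5 tested were higher, and Muc5ac and Tff1 were at 0 in every WT library. The sum was mostly the keratins Krt13 (mean 1972 to 38248 CPM) and Krt4 (149 to 21745). Spdef (0.249 to 8.22 CPM), Agr2 (1.39 to 5.23) and Muc5ac (0 to 6.19) stayed low in KO. Proliferation markers summed to 309 to 468 CPM in WT and to 588 to 711 in KO, with 4 of 6 higher. Immune markers summed to 271 to 346 CPM in WT and to 261 to 333 in KO, yet 4 of 6 tested were higher and 1 lower. The sum was mostly Itgam, which fell from a mean of 266 to 175 CPM, while Ptprc (0.402 to 5.27 CPM), Adgre1 (0.031 to 1.77), Lyz2 (0.063 to 9.39) and Cd74 (7.99 to 64.3) rose. Fibroblast markers summed to 13.3 to 16.9 CPM in WT and to 14.2 to 23.6 in KO, with 3 of 4 tested higher and 1 lower. Here Pdgfra, which fell from 13.1 to 1.21 CPM, made up most of the WT sum, while Vim (0.901 to 10.3 CPM), Dcn (0.031 to 4.53) and Col1a1 (0.545 to 2.12) rose, and Lum was at 0 in every WT library. Endothelial markers summed to 0.0458 to 0.237 CPM in WT and to 0.810 to 0.897 in KO, with 1 of 1 tested higher and Kdr at 0 in every WT library, and melanocyte markers to 7.51 to 9.71 and 5.32 to 5.37 CPM, with 2 of 3 lower. The part of these marker differences in the values that follow was not tested. In bulk samples a change in the share of a cell type and a change in RNA per cell cannot be told apart.

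More of the mitochondrial ribosomal protein genes were called higher in KO than the table as a whole. All 78 passed the filter on low counts. At an adjusted p under 0.05 (edgeR) 58 of them were higher in KO, where 31.8% of the 13305 genes tested were higher. None was lower, where 30.2% of all genes were lower. At an unadjusted p under 0.05 edgeR gave 1 lower gene, and DESeq2 gave 0 lower at either threshold. The median log2 fold change of the 78 genes was 0.48, a fold of 1.39, beside 0.01 for all genes tested. Single values ran from −0.26 for Mrpl44 to 1.40 for Mrpl33. The 3 KO libraries lay above the 3 WT libraries for 62 genes, where 34.7% of all genes did so, lay below them for 1, and overlapped them for 15. Most changes were small: 3 genes reached the study's own threshold of an adjusted p of at most 0.001 with at least a 2-fold change, where 11.6% of all genes were higher by it.

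**Figure D1:**
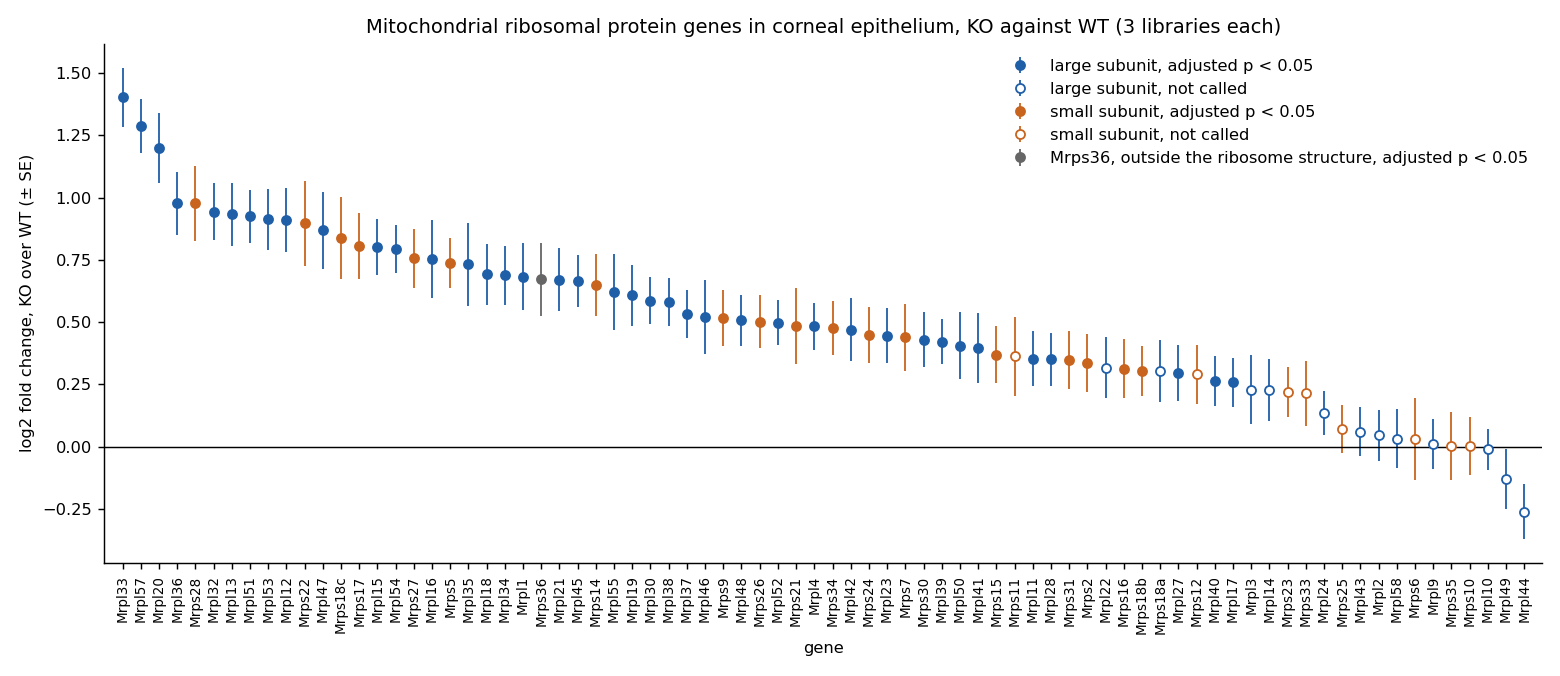
The log2 fold change of KO over WT (vertical axis, ± SE) is drawn for each of the 78 genes, ordered by size, with large subunit, small subunit and Mrps36 in separate colours and filled points for an adjusted p under 0.05. The 58 filled points are all above 0, and 3 of the open points are below it.

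Gene length bears directly on this count. The genes are short, with a median effective length (the transcript length open to reads) of 1026 bases against 2855 for all genes tested, and of the 966 genes tested under 1000 bases 590 were higher in KO and 94 lower. Log2 CPM was taken relative to the gene's mean over the 6 libraries. Its slope per doubling of length was 0.12 ± 0.034 (SD, n = 3) in WT and −0.12 ± 0.028 (SD, n = 3) in KO. Centring makes these means opposite, so they give only the difference between the groups and not a trend within either. The slopes of the WT and KO libraries did not overlap. Of the 35 genes under 1000 bases, 28 were higher with a median log2 fold change of 0.51, while 61.1% of all genes of that length were higher with a median of 0.56. Longer genes stood further from genes of their own length. From 1000 to 2000 bases 20 of 32 were higher with a median of 0.39, against 38.0% and 0.16 for all genes. From 2000 to 4000 bases 8 of 8 were higher with a median of 0.54, against 28.9% and −0.04. At 4000 bases or more 2 of 3 were higher with a median of 0.26, against 23.8% and −0.18.

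The same fit was repeated after the curve of counts against length had been removed from each library. With a least-squares curve 22 genes were higher, 19 were lower and the median log2 fold change was 0.03, beside 31.2% higher, 29.5% lower and 60.7% in either direction among all genes. This curve left genes under 1000 bases at a median of −0.25. A robust curve, added after the data had been seen, left them at 0.08, and with it 34 genes were higher, 7 were lower and the median was 0.21, beside 31.0%, 29.4% and 60.4%. The share of higher genes was thus 74.4% without a correction, 28.2% with the first and 43.6% with the second. The genes higher without a correction and with both numbered 21. They were, by size of the uncorrected change, Mrpl57, Mrpl20, Mrpl36, Mrpl51, Mrps22, Mrps17, Mrpl15, Mrps27, Mrps5, Mrpl35, Mrpl1, Mrpl45, Mrpl19, Mrpl38, Mrpl37, Mrps9, Mrpl39, Mrpl50, Mrpl41, Mrpl11 and Mrpl17. Their effective lengths ran from 643 to 6802 bases. Lower with both corrections were 7 genes, Mrps16, Mrpl52, Mrpl44, Mrps6, Mrpl2, Mrpl58 and Mrps10, of which Mrps16 and Mrpl52 were called higher without a correction.

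**Figure D2:**
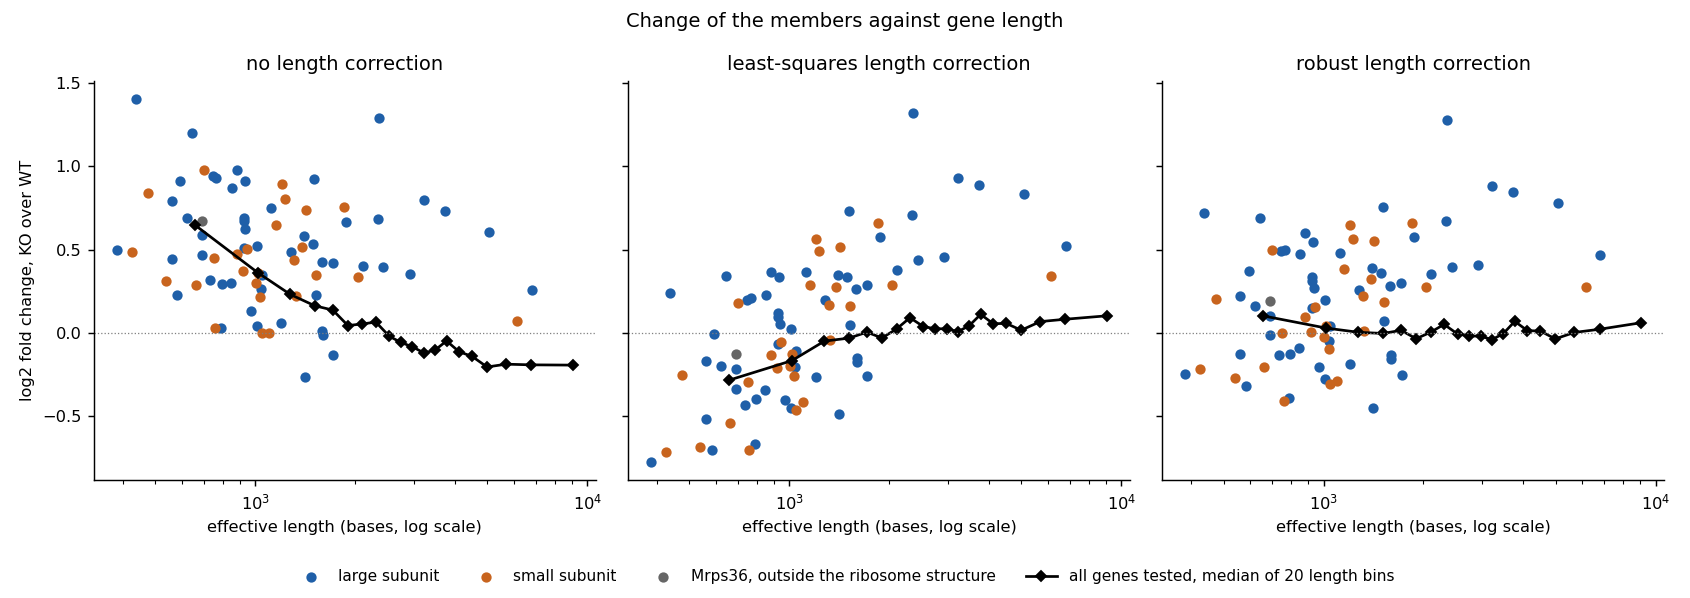
Each point is one of the 78 genes, with its effective length in bases on a log horizontal axis and its log2 fold change of KO over WT on the vertical axis. The black line joins the medians of all genes tested in 20 length bins. Without a correction (left) the line falls with length and most short genes lie around it, with the least-squares curve (middle) the shortest genes fall below 0, and with the robust curve (right) the line is close to 0 and the median of the 78 is 0.21.

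The 3 genes past the study's threshold belong to the large subunit. Mrpl33 (chromosome 5, 31613951 to 31629873 in the deposited positions, GRCm38), the counterpart of a small bacterial protein, measured 9.34, 9.77 and 9.23 CPM in WT and 23.1, 28.2 and 23.7 in KO. The groups were far apart, a log2 change of 1.40 ± 0.12 (SE; edgeR adjusted p = 2.7e-05). Mrpl33 has an effective length of 438 bases, and its change was 0.24 (adjusted p = 0.12) with the least-squares correction and 0.72 (adjusted p = 0.00084) with the robust one. Mrpl57 (chromosome 14, 57826228 to 57831162), a protein found only in mitochondrial ribosomes, measured 8.34, 9.26 and 9.33 CPM in WT and 21.02, 22.9 and 21.9 in KO. Its change of 1.29 ± 0.11 (SE; edgeR adjusted p = 2.5e-05) was nearly the same, 1.32 and 1.28, with the corrections. The deposited position of Mrpl57 overlaps those of Ska3, a gene of chromosome segregation with a log2 fold change of 0.81, and Zdhhc20, with 0.07. Mrpl20 (chromosome 4, 155802852 to 155808831), which in bacteria is needed early in the assembly of the large subunit, measured 15.7, 17.5 and 19.6 CPM in WT and 34.3, 46.5 and 40.6 in KO. No values overlapped, and its change of 1.1996 ± 0.14 (SE; edgeR adjusted p = 0.00014) was 0.34 and 0.69 with the corrections.

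The next 7 changes ran from 0.91 to 0.98 on the log2 scale, with standard errors of 0.11 to 0.15, so their order is not resolved. Mrpl36, again with a small bacterial counterpart, measured 15.1, 14.5 and 17.2 CPM in WT and 29.0, 35.2 and 28.0 in KO. Mrps28, of the small subunit, was low in both groups, at 5.68, 4.61 and 4.45 CPM in WT and 9.22, 10.2 and 9.62 in KO. Mrpl32, whose product is trimmed by the m-AAA protease before it enters the ribosome, measured 10.9, 11.2 and 11.98 CPM in WT and 19.5, 22.7 and 23.1 in KO. These 3 rose with no overlap between groups. Mrpl13 went from 12.96, 16.9 and 14.96 CPM to 26.4, 28.8 and 30.3. Mrpl51 went from 22.1, 22.5 and 23.8 CPM to 38.9, 48.3 and 42.7. Mrpl53 went from 8.20, 7.91 and 9.61 CPM to 16.3, 15.7 and 16.4. Mrpl13 has a bacterial counterpart, while Mrpl51 and Mrpl53 are found only in mitochondria, and all 3 again separated the groups. With the least-squares length correction Mrpl36 (0.37) and Mrpl51 (0.73) stayed past the threshold, whereas Mrps28 (0.18), Mrpl32 (0.20), Mrpl13 (0.21), Mrpl53 (−0.0046) and Mrpl12 (0.33) did not. With the robust correction all 7 stayed past it, at 0.37 to 0.76.

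**Figure D3:**
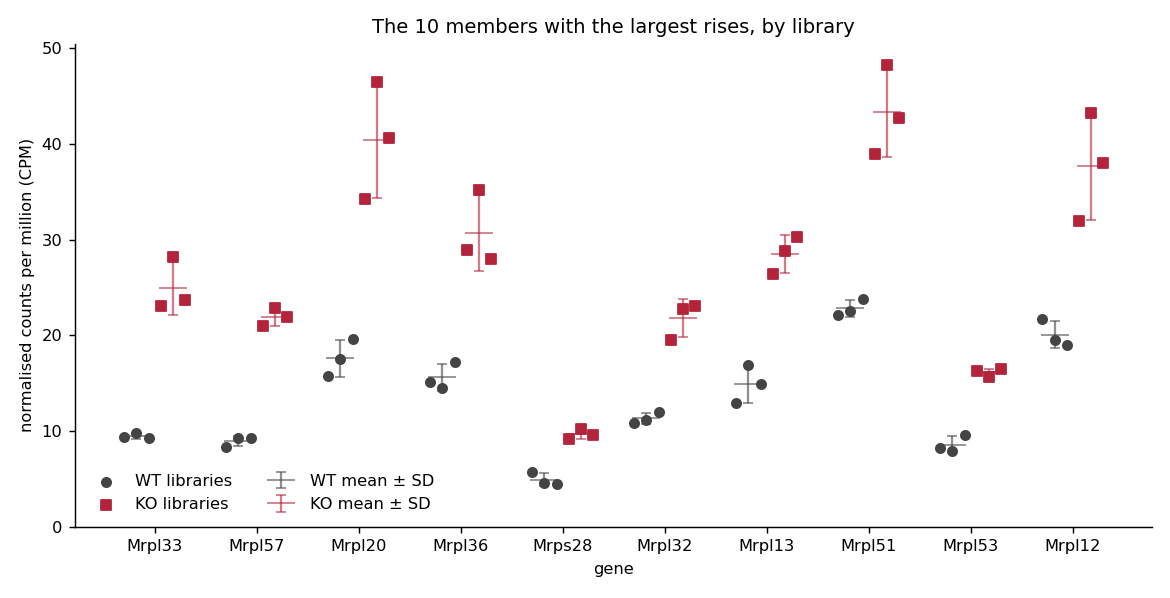
CPM in each of the 3 WT (circles) and 3 KO (squares) libraries is plotted for the 10 genes with the largest rises, with the group mean ± SD. For every gene the 3 KO libraries lie above the 3 WT libraries. The highest KO library is replicate 2 for most of these genes and replicate 3 for the others.

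The stalk of the large subunit, which recruits the translation factors that use GTP, gave 3 different values. Mrpl12, the stalk protein itself, measured 21.7, 19.5 and 19.0 CPM in WT and 31.9, 43.2 and 38.1 in KO, a log2 change of 0.91 ± 0.13 (SE; edgeR adjusted p = 0.00043). With the length corrections its change was 0.33 (least squares), which missed the threshold, and 0.55 (robust). Mrpl11, at the stalk base, measured 13.4, 13.7 and 14.1 CPM in WT and 16.5, 19.4 and 16.7 in KO, a change of 0.35 ± 0.11 (SE; edgeR adjusted p = 0.023) that was 0.46 and 0.41 with the length corrections. Mrpl10, which anchors Mrpl12, measured 38.7, 38.2 and 40.0 CPM in WT and 39.0, 37.5 and 39.6 in KO. Its change was −0.01 ± 0.08 (SE; edgeR adjusted p = 0.92), and 2 of the 3 KO libraries lay within the WT range. The differences between the 3 changes were not tested.

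Other large subunit genes with known roles spread as widely. Mrpl45, on the side of the exit tunnel where the ribosome sits on the inner membrane, measured 17.3, 17.8 and 18.2 CPM in WT and 25.6, 30.1 and 28.9 in KO. It rose by 0.66 ± 0.10 on the log2 scale (SE; edgeR adjusted p = 0.00067), and by 0.58 and 0.57 with the corrections. Mrps30, a mitochondria-specific large subunit protein, rose by 0.43 ± 0.11 (SE; edgeR adjusted p = 0.0093) and missed the threshold with both corrections (0.26 and 0.28). Mrpl3, near the peptidyl transferase centre, measured 18.6, 21.5 and 19.9 CPM in WT and 26.2, 24.98 and 19.1 in KO, with KO replicate 3 inside the WT range. Mrpl58, a peptidyl-tRNA hydrolase that frees stalled chains and is built into the subunit, measured 16.3, 16.6 and 19.6 CPM in WT and 17.3, 19.4 and 16.8 in KO. Neither was called without a correction (0.23 and 0.03). Mrpl44, whose fold resembles that of RNase III, was the only gene with every KO library below every WT library, at 15.3, 16.4 and 17.8 CPM in WT and 13.1, 14.3 and 13.8 in KO. Its change of −0.26 ± 0.11 (SE; edgeR adjusted p = 0.066) missed the threshold, and it was −0.49 (adjusted p = 0.0034) and −0.45 (adjusted p = 0.0051) with the corrections.

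In the large subunit 39 of 51 genes were higher with a median log2 fold change of 0.51, and in the small subunit 18 of 26 with a median of 0.40. Genes with a bacterial counterpart (35 of 46 higher, median 0.50) and those found only in mitochondria (22 of 31, median 0.43) also had similar medians. These splits were not tested against each other. Without a correction 31.8% of all genes tested were higher. With the least-squares correction 16 genes of the large subunit were higher and 12 lower (31.4% and 23.5%, median 0.10). In the small subunit 6 were higher and 7 lower (23.1% and 26.9%, median −0.09), beside 31.2% and 29.5% of all genes. With the robust correction 26 genes of the large subunit were higher and 4 lower (51.0% and 7.84%, median 0.28). In the small subunit 8 were higher and 3 lower (30.8% and 11.5%, median 0.13), beside 31.0% and 29.4% of all genes. Genes with a bacterial counterpart had 11 higher and 12 lower with the first correction (23.9% and 26.1%, median 0.11). With the second they had 22 and 4 (47.8% and 8.70%, median 0.26). Those found only in mitochondria had 11 and 7 with the first (35.5% and 22.6%, median −0.04) and 12 and 3 with the second (38.7% and 9.68%, median 0.19).

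In the small subunit Mrps22, a mitochondria-specific protein mutated in a human mitochondrial disease, measured 6.83, 7.21 and 7.62 CPM in WT and 10.3, 15.2 and 14.8 in KO, a log2 change of 0.90 ± 0.17 (SE; edgeR adjusted p = 0.0020). It stayed past the threshold with both corrections, at 0.57 and 0.65. Mrps12, a protein of the decoding site, measured 11.7, 14.0 and 14.5 CPM in WT and 16.5, 15.8 and 16.8 in KO. The groups did not overlap, yet its change of 0.29 ± 0.12 (SE; edgeR adjusted p = 0.062) missed the threshold. Mrps16, also linked to human disease, measured 13.2, 12.98 and 15.5 CPM in WT and 16.1, 18.3 and 17.4 in KO. It was called higher by a small margin (0.31 ± 0.12, SE; edgeR adjusted p = 0.047) and lower with either correction (−0.68 and −0.27).

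The paralogues that share the name Mrps18 sit at 3 different places of the ribosome. Mrps18c, the counterpart of the bacterial protein, measured 9.02, 10.7 and 14.1 CPM in WT and 19.1, 20.97 and 20.3 in KO, a log2 change of 0.84 ± 0.16 (SE; edgeR adjusted p = 0.0023). Mrps18b, a separate small subunit protein, measured 28.5, 30.4 and 30.8 CPM in WT and 33.8, 40.5 and 36.4 in KO, a smaller change of 0.30 ± 0.10 (SE; edgeR adjusted p = 0.028). Mrps18a, of the large subunit, measured 15.2, 15.5 and 18.1 CPM in WT and 19.1, 22.5 and 18.5 in KO, and its change of 0.30 ± 0.12 (SE) missed the threshold (edgeR adjusted p = 0.0635). The KO libraries were above the WT libraries for all 3, and none of them was higher with either length correction. Mrps36, outside the ribosome, measured 7.19, 8.65 and 8.90 CPM in WT and 11.5, 14.8 and 13.1 in KO. It rose by 0.67 ± 0.15 on the log2 scale (SE; edgeR adjusted p = 0.0041), and its values were −0.13 and 0.19 with the corrections, past the threshold in neither.

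The 20 genes not called had log2 fold changes between −0.26 and 0.36. Those from 0.13 to 0.36 were Mrps11 (0.36), Mrpl22 (0.32), Mrps18a (0.30), Mrps12 (0.29), Mrpl3 (0.23), Mrpl14 (0.23), Mrps23 (0.22), Mrps33 (0.21) and Mrpl24 (0.13). Close to 0 were Mrps25 (0.07), Mrpl43 (0.06), Mrpl2 (0.04), Mrpl58 (0.03), Mrps6 (0.03), Mrpl9 (0.01), Mrps35 (0.00), Mrps10 (0.00) and Mrpl10 (−0.01), and below it Mrpl49 (−0.13) and Mrpl44 (−0.26). Mrpl9 measured 42.3, 48.7 and 46.0 CPM in WT and 42.1, 49.7 and 46.3 in KO. Its change had a standard error of 0.10, no larger than that of several genes called higher. Mrps6 measured 6.14, 6.19 and 7.43 CPM in WT and 5.87, 6.62 and 7.67 in KO.

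Levels between genes were compared as TPM, which divides by length. The highest was Mrpl52, a mitochondria-specific protein, at 192 ± 2.5 TPM in WT and 214 ± 15 in KO (SD, n = 3). Mrps21, a small subunit protein with a bacterial counterpart, followed at 148 ± 11 and 165 ± 30 TPM, and Mrpl42 at 113 ± 4.1 and 123 ± 17 TPM. These 3 were separated by more than their SD in WT. The next in order, Mrpl24, stood at 104 ± 4.7 and 88.1 ± 1.5 TPM. It was also apart from Mrpl42 by more than the SD of either gene in WT, but within about 2 SD. The lowest were Mrpl35, at 8.77 ± 1.2 and 11.5 ± 2.3 TPM, Mrpl1, at 7.12 ± 0.70 and 8.76 ± 0.86, and Mrpl19, at 5.63 ± 0.38 and 6.78 ± 0.90. Mrpl35 and Mrpl1 overlapped within their spread. The order of the 78 genes was similar in WT and KO (Spearman's rho 0.927, a description over genes of the same libraries). The median gene stood at 34.9 TPM in WT and 41.1 in KO, and 54 of the 78 had a higher mean TPM in KO. By counts 75 had a positive log2 fold change, where 50.4% of all genes tested had one. The share of all genes with a higher mean TPM was not computed, and TPM were not scaled by TMM.

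**Figure D4:**
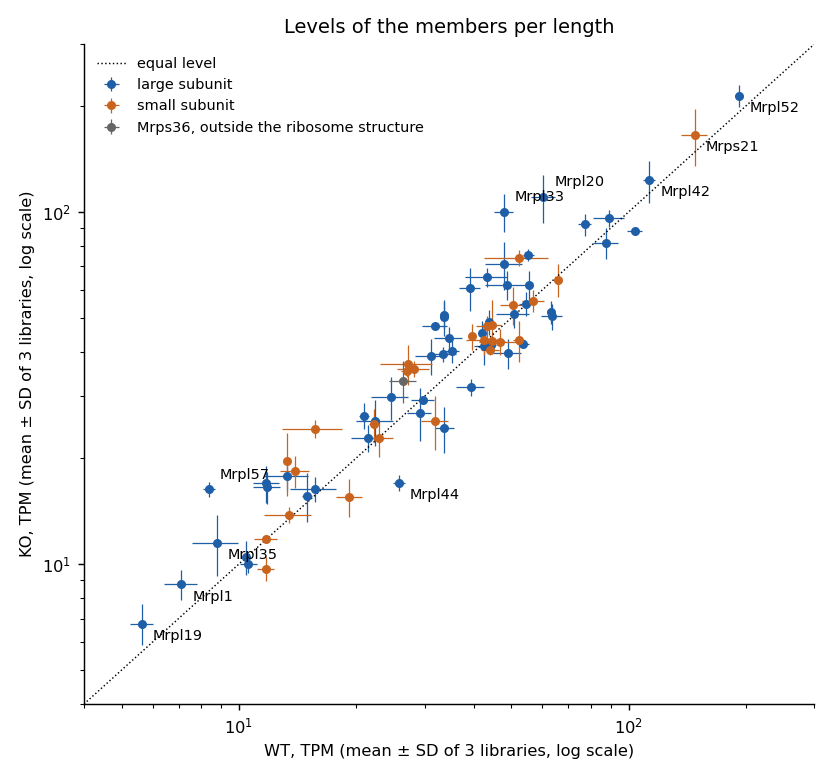
Mean TPM ± SD of 3 libraries is plotted for each of the 78 genes, WT on the horizontal and KO on the vertical axis, both log scales, with a dotted line of equal levels. Mrpl33, Mrpl57 and Mrpl20 lie farthest above the line, Mrpl44 lies below it, and the order from Mrpl19 to Mrpl52 is similar in both groups.

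Together the 78 genes took 0.147%, 0.149% and 0.153% of all counts in the WT libraries and 0.178%, 0.210% and 0.190% in the KO libraries. The group means were 0.1497% ± 0.0033 and 0.193% ± 0.016 (SD, n = 3), a ratio of 1.29, and no KO library fell within the WT range. In summed TPM the libraries stood at 3173, 3162 and 3214 in WT and at 3325, 3822 and 3522 in KO, a smaller ratio of 1.12. The KO libraries differed more among themselves than the WT libraries did. KO replicate 2 was the highest of the 3 for 56 of the 78 genes and KO replicate 1 the lowest for 52. Of the 58 genes called higher, 43 stayed so without KO replicate 2 and 44 without WT replicate 1. The number was 48 without WT replicate 2 and also without KO replicate 3. It was 53 without WT replicate 3 and 55 without KO replicate 1.

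The regions in front of the genes were read from RefSeq (GRCm38.p6). Windows from 250 bases before to 50 after the start were at hand for 69 of the 78 genes, and 9 (Mrps28, Mrpl13, Mrpl15, Mrpl54, Mrpl19, Mrpl38, Mrpl4, Mrps34 and Mrps35) were not matched. They were searched on both strands for motifs of factors that are known to act on genes of mitochondrial biogenesis, and for the NF-kB motif. The ETS motif CCGGAAG was in 26 windows (37.7%), against 19.4% of the 10572 tested genes with a window. The palindromic NRF1 consensus was in 13 (18.8%, against 10.96%) and the YY1 motif AAGATGGCG in 8 (11.6%, against 3.41%). The E-box CACGTG was in 5 (7.25%, against 11.4%), and the NF-kB consensus also in 5 (7.25%, against 12.2%). Of all 27025 genes with a window, 9.93% held the ETS motif, 5.19% the NRF1 motif, 1.64% the YY1 motif, 8.09% the E-box and 9.55% the NF-kB consensus. Windows of the genes called higher and of those not called held the ETS motif at similar shares, 18 of 50 and 8 of 19. The NRF1 motif was in 10 of 50 and 3 of 19, and the YY1 motif in 6 of 50 and 2 of 19. A match of letters is no evidence of binding.

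The 250 bases before the start are shown for 5 genes, to set windows of large rises that hold different motifs, or none, beside that of the most abundant gene. Capitals mark the motifs that lie wholly in these bases.
Mrpl33, chr5:31613701-31613950, plus strand, no motif wholly inside: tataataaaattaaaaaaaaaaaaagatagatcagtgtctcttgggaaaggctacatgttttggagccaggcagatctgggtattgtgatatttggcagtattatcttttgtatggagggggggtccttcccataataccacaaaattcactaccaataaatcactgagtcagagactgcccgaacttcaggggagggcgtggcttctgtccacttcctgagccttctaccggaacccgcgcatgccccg
Mrpl20, chr4:155802628-155802877, plus strand, E-box: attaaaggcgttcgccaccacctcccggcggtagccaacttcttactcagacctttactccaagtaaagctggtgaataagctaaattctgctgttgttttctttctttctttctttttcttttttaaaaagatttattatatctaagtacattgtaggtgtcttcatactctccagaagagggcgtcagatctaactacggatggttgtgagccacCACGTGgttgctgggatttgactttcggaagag
Mrpl12, chr11:120484387-120484636, plus strand, NRF1: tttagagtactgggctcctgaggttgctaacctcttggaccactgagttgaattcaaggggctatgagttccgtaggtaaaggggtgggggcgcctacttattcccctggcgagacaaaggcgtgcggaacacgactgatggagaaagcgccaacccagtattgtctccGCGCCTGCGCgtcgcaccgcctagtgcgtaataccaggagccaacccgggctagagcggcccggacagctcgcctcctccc
Mrps22, chr9:98601680-98601929, minus strand, ETS: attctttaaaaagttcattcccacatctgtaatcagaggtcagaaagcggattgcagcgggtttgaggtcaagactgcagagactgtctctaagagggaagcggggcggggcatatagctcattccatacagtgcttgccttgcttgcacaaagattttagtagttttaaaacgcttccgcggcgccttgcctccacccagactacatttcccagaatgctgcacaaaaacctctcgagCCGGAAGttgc
Mrpl52, chr14:54426659-54426908, plus strand, ETS on the opposite strand: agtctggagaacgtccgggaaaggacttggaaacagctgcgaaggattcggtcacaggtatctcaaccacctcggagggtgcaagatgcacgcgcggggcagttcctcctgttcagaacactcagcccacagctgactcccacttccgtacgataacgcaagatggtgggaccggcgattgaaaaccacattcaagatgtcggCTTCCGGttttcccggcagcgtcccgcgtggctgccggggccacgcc
Mrpl33 and Mrpl52 each hold a further ETS motif that crosses or follows the end of the printed bases.

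Some of the genes start back to back with another gene. Of the 69 genes with a RefSeq window, 26 had a gene on the other strand that starts within 1000 bases and points away. The share of all genes with such a partner was not computed. Of the 24 partners tested, 9 were higher, 5 were lower and 10 were not called, where 31.8% and 30.2% of all genes were higher and lower. Mrpl46 and Mrps11 are partners of each other, with starts 42 bases apart. Mrpl46 measured 10.7, 8.93 and 11.03 CPM in WT and 12.5, 16.7 and 14.9 in KO (log2 fold change 0.52 ± 0.15 SE, edgeR adjusted p = 0.015). Mrps11 measured 5.13, 6.89 and 6.58 CPM in WT and 7.60, 8.43 and 7.87 in KO (0.36 ± 0.16 SE, edgeR adjusted p = 0.076). Each pair of groups was apart, and only the first passed the threshold. Partners of other genes moved with them or against them. Mrpl32 (0.94) and Psma2, a proteasome subunit (0.80), both rose, as did Mrpl57 (1.29) and Ska3 (0.81). Mrps5 rose (0.74) beside a lower Zfp661 (−0.61), and Mrpl2, not called (0.04), starts 141 bases from Klc4, a kinesin light chain that fell by 1.34 on the log2 scale.

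The other proteins of the mitochondrial ribosome, which carry unrelated names, had a median log2 fold change of 0.52. All 5 were higher: Dap3 (log2 fold change 0.52 ± 0.09), Ptcd3 (0.72 ± 0.13), Chchd1 (0.70 ± 0.15), Aurkaip1 (0.42 ± 0.10) and Gadd45gip1 (0.39 ± 0.12), each with its SE. With either length correction 2 of them, Dap3 and Ptcd3, stayed past the threshold. A list of translation factors, which also held the inner membrane protein Letm1, had 14 genes tested, with a median effective length of 2374 bases. Of these 4 were higher (28.6%, beside 31.8% of all genes) and none lower by edgeR. Their median was 0.08, and 0.13 and 0.12 with the length corrections, beside 0.48, 0.03 and 0.21 for the 78 genes. The higher ones were the elongation factors Gfm1 (0.88 ± 0.09) and Tufm (0.55 ± 0.09), Taco1, which activates translation of the Cox1 mRNA (0.56 ± 0.14), and Letm1, an inner membrane protein (0.45 ± 0.09). Counts of Gfm1 were 392, 380 and 379 in WT against 638, 642 and 689 in KO, and it stayed past the threshold with both corrections (0.95 and 0.91).

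Of 23 factors of ribosome assembly and rRNA processing tested, 7 were higher (30.4%, beside 31.8% of all genes) and 2 lower (8.70%, beside 30.2%), with a median of 0.10. The largest rises were Noa1, a GTPase (1.26 ± 0.13), and Mrm3, a methyltransferase of the large rRNA (0.96 ± 0.19). Counts of Noa1 were 206, 179 and 158 in WT against 426, 398 and 382 in KO, so the groups did not overlap. Mtg2, another GTPase of the large subunit, fell by 0.74 ± 0.13 on the log2 scale, and Eral1, a chaperone of the small rRNA, fell by 0.47 ± 0.10. Of 17 mitochondrial aminoacyl-tRNA synthetases 6 were higher (35.3%, beside 31.8% of all genes) and 2 lower (11.8%, beside 30.2%), with a median of 0.25. Mars2 (0.90 ± 0.20) and Yars2 (0.81 ± 0.14) rose most, while Vars2 fell by 1.12 ± 0.12 and Aars2 by 0.34 ± 0.13. Counts of Vars2 were 980, 913 and 804 in WT against 426, 375 and 345 in KO. The median effective lengths of the last 2 lists were 1779 and 2442 bases, and the changes of Noa1 (1.28 and 1.24) and Vars2 (−0.93 and −0.97) were similar with the length corrections.

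Among 18 genes of mitochondrial DNA transcription and mRNA handling 6 were higher (33.3%, beside 31.8% of all genes) and 2 lower (11.1%, beside 30.2%), with a median of 0.12. Tfam, which packages mitochondrial DNA (0.04 ± 0.11), and the RNA polymerase Polrmt (−0.18 ± 0.12) were not called. Lrpprc, which stabilises mitochondrial mRNA, rose by 0.60 ± 0.10 on the log2 scale. The coactivators of mitochondrial gene expression did not share a direction. Ppargc1b (1.32 ± 0.22) and Pprc1 (1.05 ± 0.13) rose, Ppargc1a fell by 1.73 ± 0.42, and the receptor Esrra fell by 0.40 ± 0.10. Ppargc1a was scarce, at 40, 36.8 and 55.7 counts in WT against 20.7, 9.44 and 7 in KO, while counts of Pprc1 were 519, 488 and 485 in WT against 1115, 805 and 944 in KO. The values of Nrf1 (0.15 ± 0.09) and Gabpa (0.10 ± 0.08), the factors that bind the NRF1 and an ETS motif, missed the threshold, and those of both passed it with either length correction (0.23 to 0.32). The proteins encoded by mitochondrial DNA were not analysed here.

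Cytosolic ribosomal proteins and subunits of the respiratory chain and ATP synthase, which are shorter still (median effective lengths 660 and 665 bases), had larger medians. Of 83 cytosolic ribosomal protein genes tested 80 were higher (96.4%) and none lower by edgeR (median 0.78). Of 82 respiratory chain and ATP synthase genes 72 were higher (87.8%) and 1 lower (1.22%), with a median of 0.64. Among all genes tested 31.8% were higher and 30.2% lower, and 61.1% of those under 1000 bases were higher. With the robust correction the medians of the cytosolic and respiratory genes were 0.29 and 0.17, beside 0.21 for the mitochondrial ribosomal proteins. With the least-squares one they were −0.05 and −0.14, beside 0.03. The differences between these groups were not tested.

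**Figure D5:**
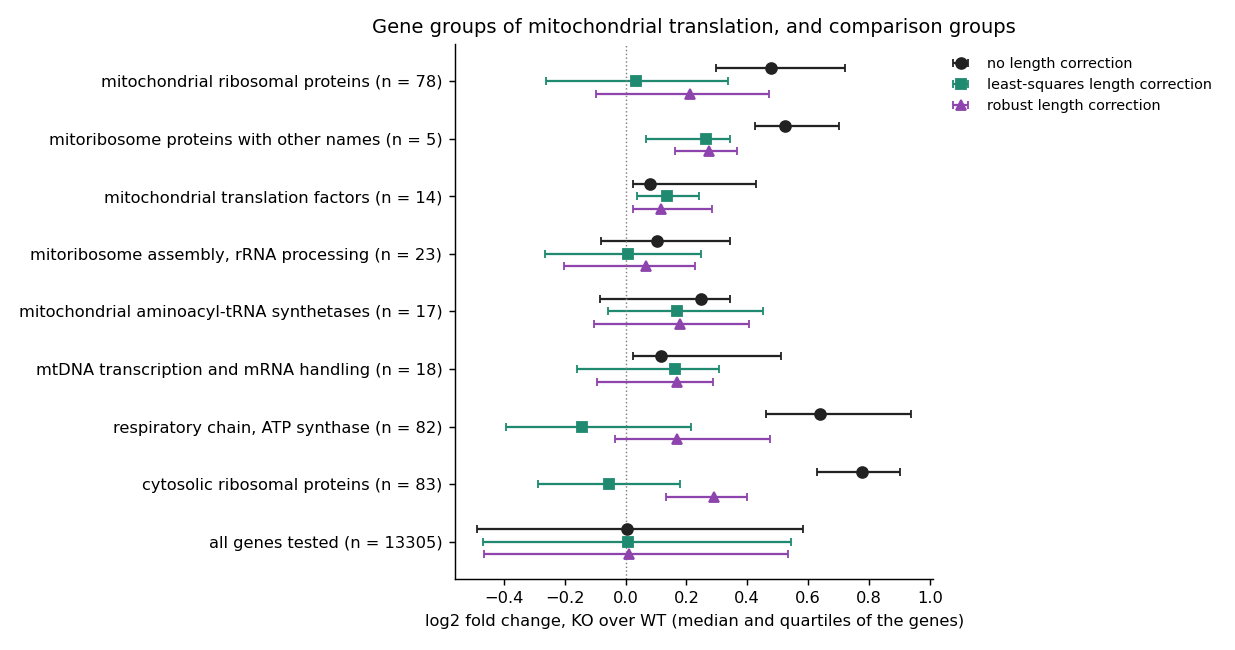
The median log2 fold change of KO over WT and the quartiles over genes are shown for the 78 genes, for 5 lists of mitochondrial translation, for 2 comparison groups and for all genes tested, without and with the length corrections. The ribosomal and respiratory groups have medians of 0.48 to 0.78 without a correction and of −0.14 to 0.29 with one.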

How the data were processed

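Corneal epithelium was lifted from the stroma, and total RNA was sequenced in 6 libraries. The authors aligned reads with Bowtie2 (version 2.2.5) and estimated expression with RSEM (version 1.2.12). Per the labels the build was mm9, whereas the chromosome names in the deposited table are those of GRCm38. The deposited table gives expected counts, FPKM and TPM for each gene and library. It also holds group averages, fold changes and p-values of the authors' own comparison, which were not used. Whether counting used strand is not given in the sources used here, so reads from sequence that overlapping genes share may not be told apart. Over whole gene spans, introns included, 36 of the 78 genes overlap another gene in the deposited positions. How much of this overlap lies in exons was not determined. The 39 genes with a span over 3000000 bases were left out as neighbours. RSEM shares reads between similar transcripts, and 27 of the 78 have counts that are not whole (tolerance 0.001).

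Expected counts were rounded and tested with edgeR (version 4.0.16, R version 4.3.3) by TMM scaling, filterByExpr and the quasi-likelihood test with genotype as the only term, and p-values were adjusted by Benjamini-Hochberg over the 13305 genes tested. Standard errors were derived from the F statistic. CPM are rounded counts scaled to the library total after TMM. Effective length was derived from counts and FPKM. The length corrections entered a loess curve (span 0.5) of log counts on log length as an offset in each library. Other fits used DESeq2 (version 1.42.0), limma (version 3.58.1) on log2(FPKM + 1) and log2(FPKM + 0.1), RLE factors, total counts, other filters, a replicate block and the omission of each library. The scripts were tested on simulated data. No pair of libraries agreed within sampling noise, and p-values measure the spread between the 3 samples of each group.

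The genes, gene lists and tests were chosen with earlier results of these data known. Named are Rela, the 10 largest rises, the 3 highest and 3 lowest by TPM, 16 genes fixed by role, every gene not called, genes whose call changed in at least 3 alternatives and, of each other list, the 2 largest rises and falls among called genes with Dap3, Ptcd3, Tufm, Tfam, Polrmt and Lrpprc. Letm1, Aurkaip1, Gadd45gip1, Nrf1, Gabpa, the genes higher or lower with both length corrections, the partner genes and single marker genes were named after their values were seen. The members hold 91.0 to 1065 counts in each library.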

Additional observations from a re-analysis of the deposited data

How the results depend on the processing

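Gene length is the main limit. Without a length correction no alternative lowered the number of higher genes from 58 to under 43. With the least-squares length correction 22 were higher and 19 lower with a median log2 fold change of 0.03, and with the robust one 34 and 7 with a median of 0.21. Under total counts, limma on log2(FPKM + 1) and limma on log2(FPKM + 0.1) 1 gene, Mrpl44, was lower, and the median was 0.37 with limma on log2(FPKM + 1). The summed share had a ratio of 1.12 in TPM. Leaving out each library gave 43 to 56 higher genes, a median of 0.42 to 0.54 and a ratio of 1.23 to 1.34. The cause of these changes was not tested.

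Samples of WT and KO share only a replicate number: the correlations of their deviations were 0.034, −0.010 and 0.061. With a replicate block 54 genes were higher and none lower.

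Among the other lists, the proteins with other names had 2 higher with either length correction. Assembly factors had 3 higher with total counts, 4 with either limma fit and 4 with either length correction, 3 to 6 without 1 library, and 5 (least squares) and 4 (robust) lower. Synthetases had 1 lower, not 2, with DESeq2, RLE factors, a mean count of at least 50, either length correction and the replicate block, and 1 to 2 without 1 library. Transcription genes had 1 lower with a mean count of at least 50. Cytosolic ribosomal proteins had 14 higher and 21 lower with least squares (16.9% and 25.3%), and 49 and 3 with the robust curve (59.0% and 3.61%). Respiratory chain genes had 19 higher and 32 lower with least squares (23.2% and 39.0%), and 39 and 10 with the robust curve (47.6% and 12.2%). Among all genes 31.2% were higher and 29.5% lower with least squares, and 31.0% and 29.4% with the robust curve. Respiratory chain genes also had 3 lower with total counts and either limma fit, 2 with no filter, and 1 to 2 without 1 library.

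Of the 76 genes named singly, 60 to 76 kept direction and side of the threshold in each alternative outside the length corrections. The call changed in at least 3 alternatives for Mrpl46, Mrps21, Mrps7, Mrpl50, Mrpl41, Mrps15, Mrpl11, Mrpl28, Mrps31, Mrps2, Mrpl22, Mrps16, Mrps18b, Mrps18a, Mrpl27, Mrpl40, Mrpl17 and Mrpl44, most often for Mrpl40 (13 of 18).

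The direction turned, with a call before or after, with the least-squares correction for Chchd1 (−0.25), Mrpl14 (−0.71), Mrpl2 (−0.45), Mrpl22 (−0.43), Mrpl24 (−0.40), Mrpl27 (−0.40), Mrpl28 (−0.11), Mrpl40 (−0.21), Mrpl42 (−0.34), Mrpl43 (−0.27), Mrpl52 (−0.78), Mrpl53 (−0.0046), Mrpl58 (−0.66), Mrps10 (−0.41), Mrps12 (−0.54), Mrps15 (−0.21), Mrps16 (−0.68), Mrps18a (−0.34), Mrps18b (−0.20), Mrps18c (−0.25), Mrps21 (−0.71), Mrps35 (−0.46), Mrps36 (−0.13) and Mrps6 (−0.70). With the robust correction it turned for Mrpl2 (−0.28), Mrpl27 (−0.13), Mrpl40 (−0.047), Mrpl42 (−0.014), Mrpl52 (−0.25), Mrpl58 (−0.39), Mrps10 (−0.29), Mrps16 (−0.27), Mrps18b (−0.024), Mrps21 (−0.22) and Mrps6 (−0.41).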
